A study of Mus musculus with 15 samples.

Results

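The TGF-beta and BMP signalling genes examined here are 44 genes chosen by name: every probe was taken whose gene name in the scanner files is one of 10 ligands, 11 receptors and co-receptors, 6 secreted inhibitors, 11 Smads and their regulators, or 6 target genes of the pathway. The 44 genes had 79 probes, out of 56605 probes for 37008 gene names on the array. Ligands of the TGF-beta family bind pairs of type I and type II receptor kinases. TGF-beta and activin receptors phosphorylate Smad2 and Smad3, BMP receptors phosphorylate Smad1, Smad5 and Smad9, and both kinds of Smad enter the nucleus with Smad4. Pancreatic stellate cells (PSC) are the matrix-producing fibroblasts of the pancreas, and TGF-beta is a textbook driver of their activation into myofibroblasts.

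RNA of mouse cells was measured on 15 one-colour Agilent arrays in 5 groups of 3. PSC HT were stellate cells isolated from heterozygous mice and PSC WT were stellate cells from wild-type mice, both cultured for 2 weeks to activation. HT PSC medium and WT PSC medium were pancreatic cancer cells exposed for 24 h to medium conditioned by heterozygous or wild-type stellate cells, and control medium was the same kind of cancer cell in control medium for 24 h. The labels name neither the heterozygous locus nor the cancer cell line, and nothing states that the replicates of a group are separate mice or cultures; the p-values therefore reflect the variation among these 15 arrays, part or all of which may be technical. On the arrays, 54.3 to 63.8% of spots were well above background and 0 were saturated. All 12 stellate cell and myofibroblast markers were above background on every PSC array, and 10 of 12 epithelial markers on every cancer cell array. The array PSC HT 3 stood apart from the other PSC arrays. Its Cdh1 signal was 0.85% of the mean in control medium, against 0.0156 to 0.0238% on the others. Of its spots, 54.3% were well above background, against 59.3 to 63.8% on the others. The differences of the members called between PSC HT and PSC WT are therefore also given without it, and other results on PSC HT include it.

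Levels below are log2 of the processed signal minus the array's 75th percentile, so 0 is the brightness of the 75th-percentile probe of that array. A difference of 1 is a doubling on this scale, and levels of different genes cannot be compared because each probe has its own brightness. A gene was tested where its probe, the brightest on average if there were several, cleared the scanner software's background test in all 3 replicates of 1 group or more, and was called at an adjusted p under 0.05 from limma with Benjamini-Hochberg adjustment over all genes tested. Of the 44 genes, 35 were above background on all 15 arrays and 0 were below it everywhere. The bone morphogenetic protein Bmp2 was above background on 2 arrays only and was tested nowhere. Of the 4 probes named Bmp5, the brightest lies on the minus strand of the chromosome and rests on the symbol alone, while the other 3 lie on the plus strand and were above background on 1, 0 and 0 arrays. Bmp5 was tested nowhere and no level of it is given.

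**Figure D1:**
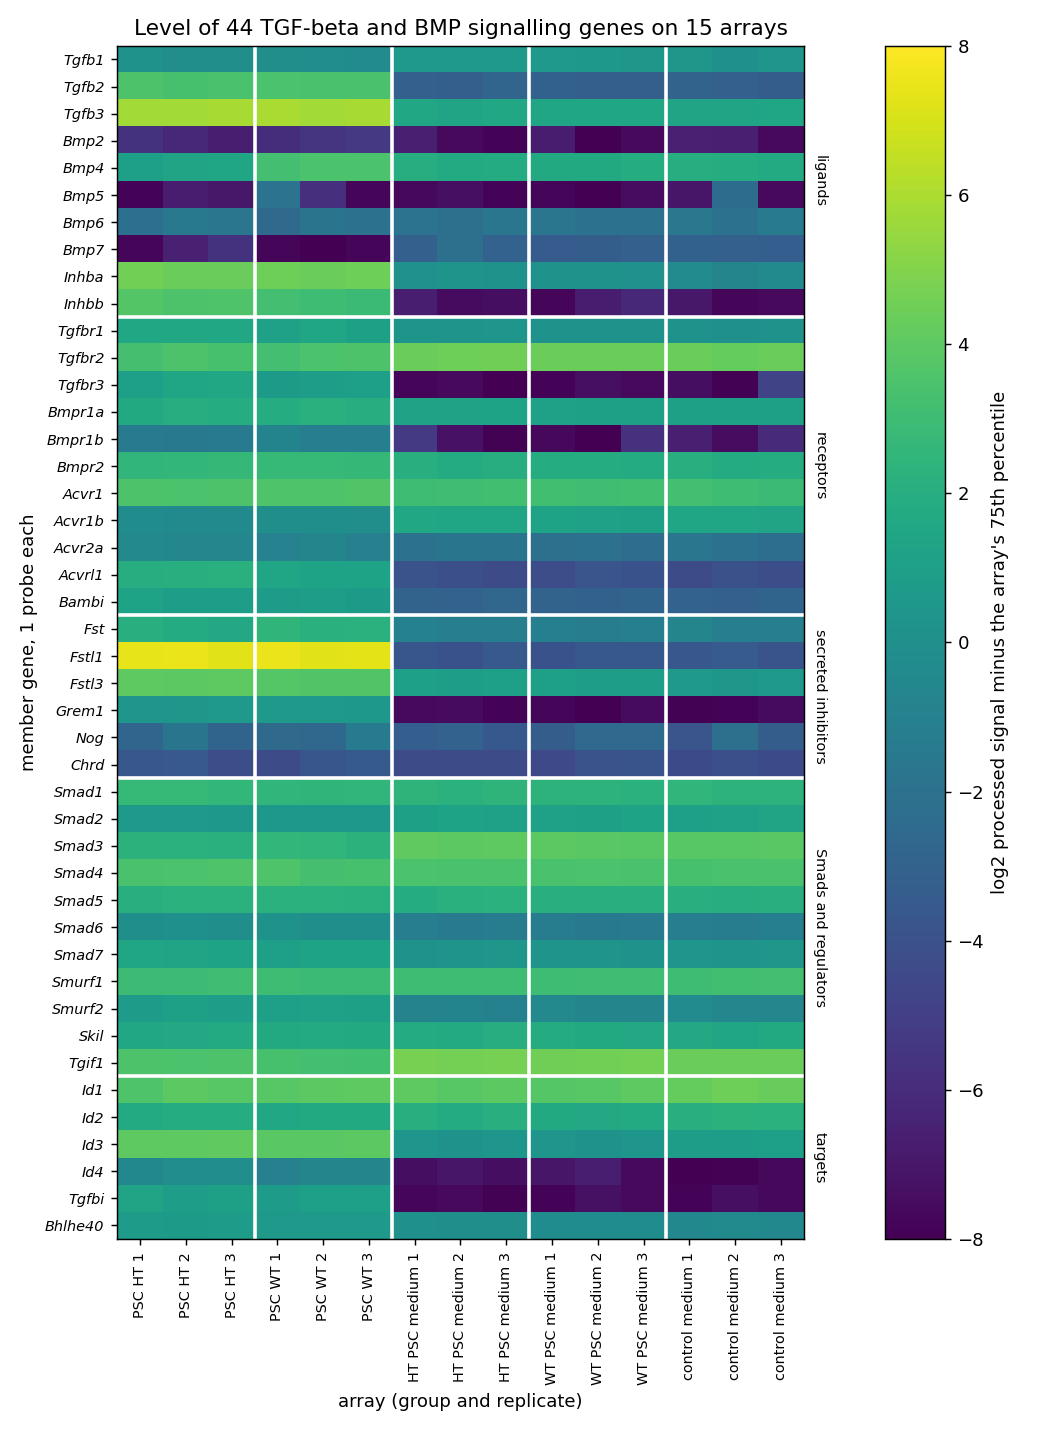
Heat map of the level of the 44 genes (rows, grouped by role, 1 probe each) on the 15 arrays (columns, grouped by sample group), as log2 processed signal minus the array's 75th percentile; colours can be compared along a row, not between rows. Bmp4 is darker on the 3 PSC HT arrays (1.06 to 1.46) than on the 3 PSC WT arrays (3.19 to 3.49), and Inhbb, Tgfbr3, Bmpr1b, Grem1, Id4 and Tgfbi are near the bottom of the scale in cancer cells. The row named Bmp5 is the minus-strand probe.

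The probes for the members on which the results turn are printed because each level is the brightness of these 60 bases only; coordinates are those of the files, in build mm9. Bmp4, Acvrl1 and Id2 have 2 probes each, of which the brighter one gave the value reported. The other reads different bases of the same gene, in the same RNA and on the same arrays. The second Acvrl1 probe spans 293 bases of the genome and the Id3 probe 175, so the sequence of each is interrupted there. No letters are capitalised because no part of a probe was singled out.
Bmp4, reported probe (chr14:47003391-47003450, minus strand): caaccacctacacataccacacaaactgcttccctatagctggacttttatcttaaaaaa
Bmp4, second probe (chr14:47003802-47003861, minus strand): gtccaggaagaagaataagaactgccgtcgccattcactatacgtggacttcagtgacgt
Acvrl1, reported probe (chr15:100974010-100974069, plus strand): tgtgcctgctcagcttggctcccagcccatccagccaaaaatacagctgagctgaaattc
Acvrl1, second probe (chr15:100967514-100967806, plus strand): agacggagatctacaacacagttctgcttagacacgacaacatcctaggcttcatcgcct
Inhba (chr13:16118634-16118693, plus strand): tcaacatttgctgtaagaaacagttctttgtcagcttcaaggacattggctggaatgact
Id1 (chr2:152563083-152563142, plus strand): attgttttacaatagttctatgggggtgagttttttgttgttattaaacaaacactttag
Id2, reported probe (chr12:25778904-25778963, minus strand): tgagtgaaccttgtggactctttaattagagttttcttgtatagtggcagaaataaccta
Id2, second probe (chr12:25780080-25780139, minus strand): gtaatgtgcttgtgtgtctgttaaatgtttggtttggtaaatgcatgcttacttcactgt
Id3 (chr4:135700075-135700249, plus strand): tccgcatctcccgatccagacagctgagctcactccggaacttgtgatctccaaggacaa

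The first comparison asked how heterozygous stellate cells differ from wild-type ones. Bmp4, a ligand of the BMP branch, was 4.21-fold lower in PSC HT, while 3 members were modestly higher: Inhbb, the beta-B subunit of activin B; Acvrl1, the type I receptor ALK1; and Fstl3, a secreted follistatin-like protein that binds activins. Of the 41 members tested, 3 were called higher (7.32%) and 1 lower (2.44%). Over all 20886 genes tested, 2.95% were called higher and 4.78% lower. The median difference of the members was 0.06, against 0.00 for all genes.

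Bmp4 had levels of 1.06, 1.37 and 1.46 in PSC HT, against 3.19, 3.49 and 3.44 in PSC WT. The highest PSC HT array lay well below the lowest PSC WT array. The difference was -2.07 ± 0.14 on the log2 scale (SE, n = 3 each; limma adjusted p = 0.000963). The second Bmp4 probe averaged -0.91 in PSC HT and 0.94 in PSC WT, a difference of -1.85. Between arrays of slide 1 alone (2 PSC HT, 1 PSC WT) the difference was -1.93. Between those of slide 2 (1 PSC HT, 2 PSC WT) the difference was -2.09. It was -2.16 without PSC HT 3 (adjusted p = 0.00389), and the call held when any other array was left out.

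Among the remaining ligands, Inhbb had levels of 3.70, 3.53 and 3.57 in PSC HT, against 3.24, 3.04 and 2.92 in PSC WT. The groups did not overlap, and the difference was 0.53 ± 0.10 (SE; limma adjusted p = 0.0321). Inhba, the beta-A subunit of activin A, averaged 4.46 ± 0.13 in PSC HT and 4.45 ± 0.03 in PSC WT (SD, n = 3 each). The 3 TGF-beta isoforms did not pass the test: Tgfb3 differed by -0.07 ± 0.08, Tgfb2 by 0.01 ± 0.07 and Tgfb1 by 0.19 ± 0.11 (SE). Bmp6 was not called either, at 0.30 ± 0.22. Bmp7 was below background on all 6 PSC arrays.

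Of the 11 receptors and co-receptors, Acvrl1 was the one called. Its levels were 1.95, 2.02 and 2.16 in PSC HT, against 1.49, 1.29 and 1.25 in PSC WT, with no overlap. The difference was 0.70 ± 0.10 (SE; limma adjusted p = 0.0108), a 1.63-fold higher signal, and the second probe gave 0.79. Acvr1, a type I receptor for BMPs (-0.10 ± 0.06), and Tgfbr2, the type II receptor for TGF-beta (0.00 ± 0.11, SE), did not pass. Bmpr1b, a type I BMP receptor, differed by -0.42 (adjusted p = 0.0838), and the TGF-beta co-receptor Tgfbr3 by 0.43 (adjusted p = 0.199).

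Fstl3 was the secreted inhibitor called, with levels of 4.05, 3.99 and 4.04 in PSC HT against 3.79, 3.64 and 3.65 in PSC WT. Every PSC HT array lay above every PSC WT array, and the difference was 0.33 ± 0.07 (SE; limma adjusted p = 0.0492). Fst, which encodes the activin-binding protein follistatin, had levels of 2.02, 1.83 and 1.66 in PSC HT and 2.48, 2.18 and 2.22 in PSC WT; its difference of -0.45 did not pass (adjusted p = 0.0937). Grem1, a BMP antagonist, differed by -0.11 ± 0.08 and Fstl1, a secreted glycoprotein of the follistatin family, by 0.03 ± 0.10 (SE).

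None of the 11 Smads and regulators and none of the 6 targets was called between PSC HT and PSC WT by limma; at an unadjusted p under 0.05 there were 2 Smads or regulators and 1 target. Smad4 differed by 0.08 ± 0.10 and Smurf1, a ubiquitin ligase acting on Smads and receptors, by 0.06 ± 0.08 (SE). The inhibitors of DNA binding Id1, Id2 and Id3, transcriptional regulators that are classic BMP targets, differed by -0.14 ± 0.11, 0.18 ± 0.08 and 0.14 ± 0.07 (SE). Id4 differed by 0.52 ± 0.16 (SE; adjusted p = 0.112). Over the whole list, 13 of 41 members had an unadjusted p under 0.05, as had 4633 of all 20886 genes.

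**Figure D2:**
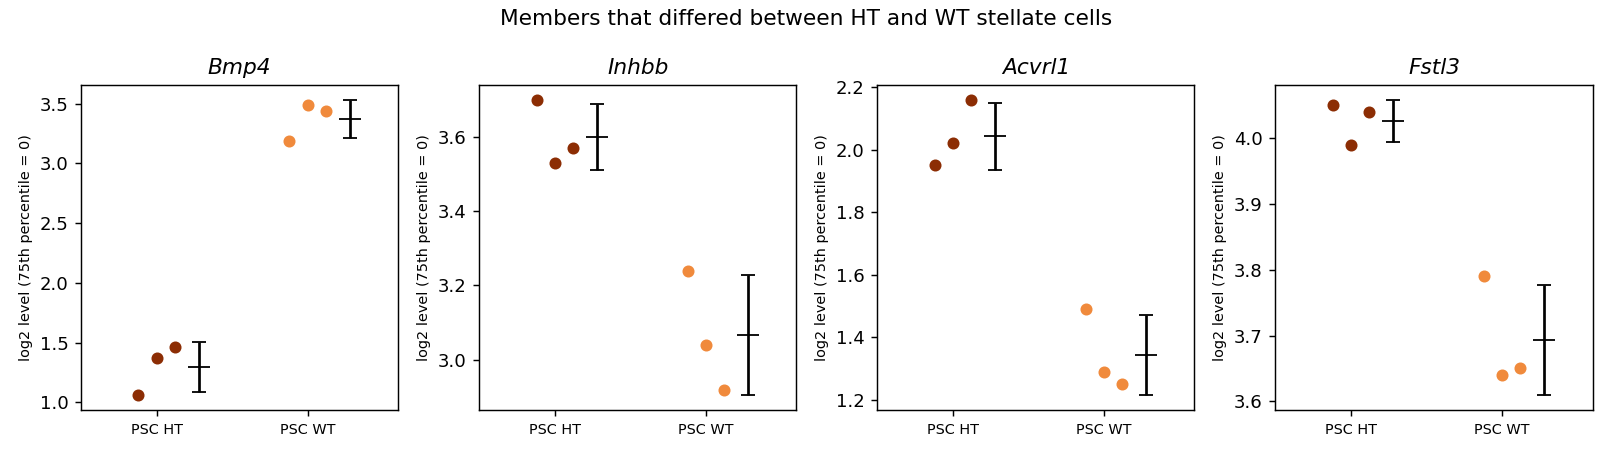
Levels of the 4 members called between heterozygous (PSC HT, dark) and wild-type (PSC WT, light) stellate cells; each point is an array, the bar is the mean with its SD (n = 3), and each panel has its own axis in log2 units. Bmp4 is lower in all 3 PSC HT arrays, at 1.06 to 1.46, and Inhbb, Acvrl1 and Fstl3 are higher.

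The calls other than Bmp4 depended on single arrays. Acvrl1 kept its call without PSC HT 3 (0.64, adjusted p = 0.0386) and lost it without PSC WT 2 (adjusted p = 0.0544) or PSC WT 3 (adjusted p = 0.058). Inhbb lost its call when any array other than PSC WT 1 was left out, at adjusted p from 0.0721 to 0.117, with a value of 0.55 without PSC HT 3 (adjusted p = 0.0857). Fstl3 lost it in the same 5 cases, at adjusted p from 0.111 to 0.186, with a value of 0.33 without PSC HT 3 (adjusted p = 0.142). Its call was also lost with the slide as a block (adjusted p = 0.0613), with the replicate number as a block (adjusted p = 0.122) and with the probes of each gene averaged (adjusted p = 0.0696).

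Markers of other cell types moved with these results, whereas 1 of 12 stellate cell and myofibroblast markers was called. Of 15 macrophage and leukocyte markers tested, out of 16, 14 were called higher in PSC HT; their summed signal, in multiples of the 75th percentile, was 77.8 to 202 in PSC HT and 16.7 to 31.8 in PSC WT. Of 8 mesothelial markers, 6 were called lower, with sums of 11.2 to 19.4 in PSC HT and 40.3 to 50.1 in PSC WT. Of 6 endothelial markers tested, out of 9, 5 were called lower, with sums of 2.22 to 2.67 in PSC HT and 4.40 to 4.67 in PSC WT, and Tek and Tie1 were below background on all 6 arrays. Of 6 epithelial markers tested, out of 12, 0 were called by limma (0 at an unadjusted p under 0.05), with sums of 6.43, 7.18 and 23.5 in PSC HT and 13.9 to 14.8 in PSC WT; Epcam, Ovol1 and Elf3 were below background on all 6 arrays. Of 4 glial markers tested, out of 5, 2 were called lower, with sums of 1.41 to 1.84 in PSC HT and 4.10 to 5.20 in PSC WT. The array with the highest macrophage sum was PSC HT 1. Without it Bmp4 differed by -1.96 (limma adjusted p = 0.00336) and Acvrl1 by 0.75 (limma adjusted p = 0.0228). Inhbb (0.48, adjusted p = 0.0917) and Fstl3 (0.32, adjusted p = 0.129) were then not called. The sums of PSC HT 2 and 3, 77.8 and 78.6, still lay above those of PSC WT, so leaving out PSC HT 1 does not remove the difference in macrophage markers. The part of these cell types in the differences of Bmp4, Inhbb, Acvrl1 and Fstl3 was not tested. In bulk RNA, fewer cells of a type and less RNA per cell cannot be told apart.

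Of 69 other genes of the pathway, 61 were tested between PSC HT and PSC WT. Where 2.95% of all genes were called higher and 4.78% lower, 2 of the 61 were called higher (3.28%) and 6 lower (9.84%). Those called lower included Itgb8, an integrin subunit that activates latent TGF-beta (-1.33 ± 0.13), Ltbp4 (-0.89 ± 0.10) and Ltbp3 (-0.47 ± 0.09), which hold latent TGF-beta in the matrix, and the BMP-like ligand Gdf6 (-0.74 ± 0.08; SE throughout). Their adjusted p lay between 0.00343 and 0.026. Lrrc32, which tethers latent TGF-beta to the cell surface, was higher by 0.40 ± 0.09 (SE; adjusted p = 0.041).

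The second question was how cancer cells respond to medium conditioned by stellate cells. In HT PSC medium, Inhba, Fstl3, Bhlhe40 and Tgif1 were higher and Id3 was lower than in control medium. In WT PSC medium, Inhba, Fstl3 and Bhlhe40 were higher and Id1, Id2 and Id3 were lower. When each array was scaled by its median, Inhba and Bhlhe40 kept their calls in HT PSC medium and Inhba alone in WT PSC medium. Both comparisons use the same 3 control medium arrays and 1 estimate of the spread, so they are not independent of each other. In HT PSC medium 4 of 36 members tested were called higher (11.1%) and 1 lower (2.78%), where 2.97% of all 19687 genes were called higher and 2.5% lower. In WT PSC medium 3 of 36 were called higher and 3 lower (8.33% each), where 2.8% of all genes were called higher and 3.15% lower. The median difference of the members was 0.05 in HT PSC medium, where that of all genes was 0.01, and 0.01 in WT PSC medium, where that of all genes was 0.03.

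Inhba was the ligand called. Its levels were 0.08, 0.27 and 0.23 in HT PSC medium, 0.24, 0.17 and 0.09 in WT PSC medium, and -0.30, -0.69 and -0.38 in control medium. Every array in conditioned medium lay above every control array. The difference from control was 0.65 ± 0.11 in HT PSC medium and 0.62 ± 0.11 in WT PSC medium (SE; limma adjusted p = 0.0121 for each). In WT PSC medium the call was lost without WT PSC medium 1 (adjusted p = 0.051). Bmp4 had a difference of 0.00 ± 0.08 in HT PSC medium and -0.09 ± 0.08 in WT PSC medium (SE). Tgfb1 did not pass in HT PSC medium (0.34, adjusted p = 0.169) or in WT PSC medium (0.25, adjusted p = 0.291).

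None of the 9 receptors tested was called in either medium by limma, with 3 at an unadjusted p under 0.05 in HT PSC medium and 1 in WT PSC medium. Tgfbr2 differed by 0.16 ± 0.07 in HT PSC medium and 0.05 ± 0.07 in WT PSC medium (SE). Tgfbr3 and Bmpr1b were each above background on 1 of the 9 cancer cell arrays and were not tested.

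Fstl3 had levels of 1.01, 0.91 and 1.05 in HT PSC medium, 1.03, 0.88 and 0.99 in WT PSC medium, and 0.67, 0.46 and 0.61 in control medium. Both conditioned groups lay above the control arrays without overlap. The difference was 0.41 ± 0.08 in HT PSC medium (SE; limma adjusted p = 0.0212) and 0.39 ± 0.08 in WT PSC medium (SE; limma adjusted p = 0.0239). The first call was lost without HT PSC medium 1, HT PSC medium 3 or control medium 2, at adjusted p from 0.0641 to 0.0827. The second was lost without WT PSC medium 1, WT PSC medium 3, control medium 2 or control medium 3, at adjusted p from 0.0534 to 0.099. The other secreted inhibitors tested, Fst, Fstl1, Nog and Chrd, were not called.

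Tgif1, a transcriptional repressor that binds Smads, had levels of 4.74, 4.64 and 4.71 in HT PSC medium, 4.53, 4.58 and 4.63 in WT PSC medium, and 4.35, 4.41 and 4.32 in control medium. The 3 groups did not overlap. Its difference from control was 0.34 ± 0.06 in HT PSC medium (SE; limma adjusted p = 0.0175) and 0.21 ± 0.06 in WT PSC medium (SE; adjusted p = 0.0822, not called). The call was lost without HT PSC medium 1, HT PSC medium 3 or control medium 1, at adjusted p from 0.0569 to 0.075, and when its 3 probes were averaged (0.29, adjusted p = 0.0848). No Smad was called: Smad3 differed by 0.18 ± 0.06 in HT PSC medium and 0.02 ± 0.06 in WT PSC medium, and Smad4 by 0.04 ± 0.05 in HT PSC medium and 0.05 ± 0.05 in WT PSC medium (SE). Smurf2, a ubiquitin ligase of the pathway, differed by -0.37 ± 0.10 in HT PSC medium (adjusted p = 0.0783).

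The targets held the members called lower. Id3 had levels of 0.42, 0.18 and 0.43 in HT PSC medium, 0.36, 0.22 and 0.39 in WT PSC medium, and 0.88, 0.92 and 1.03 in control medium, with no overlap between either conditioned group and the controls. The difference was -0.60 ± 0.09 in HT PSC medium (SE; limma adjusted p = 0.00729) and -0.62 ± 0.09 in WT PSC medium (SE; limma adjusted p = 0.00522). The call held in each medium when any single array of the comparison was left out.

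Id1 had levels of 4.02, 3.85 and 3.99 in HT PSC medium, 3.80, 3.85 and 4.0 in WT PSC medium, and 4.19, 4.44 and 4.31 in control medium. All 6 conditioned arrays lay below the 3 control arrays. The difference was -0.36 ± 0.09 in HT PSC medium (SE; adjusted p = 0.0565, not called) and -0.43 ± 0.09 in WT PSC medium (SE; limma adjusted p = 0.0264). The call in WT PSC medium was lost with the replicate number as a block (adjusted p = 0.0546) and without WT PSC medium 1 or 2 or control medium 2 or 3, at adjusted p from 0.0669 to 0.096.

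Id2 had levels of 2.10, 1.82 and 2.00 in HT PSC medium, 1.73, 1.63 and 1.75 in WT PSC medium, and 2.09, 2.30 and 2.22 in control medium. The WT PSC medium arrays lay below the controls, and the HT PSC medium arrays overlapped them. The difference was -0.23 ± 0.09 in HT PSC medium (SE; adjusted p = 0.199, not called) and -0.50 ± 0.09 in WT PSC medium (SE; limma adjusted p = 0.0144). The second Id2 probe gave -0.82 in HT PSC medium and -0.81 in WT PSC medium, so the probes disagreed on the size of the difference in HT PSC medium. The call in WT PSC medium was lost without WT PSC medium 2 or 3 or control medium 2, at adjusted p from 0.0504 to 0.0591.

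Bhlhe40, a basic helix-loop-helix repressor that can be induced by TGF-beta, had levels of 0.03, -0.03 and -0.02 in HT PSC medium, -0.25, -0.23 and -0.21 in WT PSC medium, and -0.56, -0.39 and -0.54 in control medium. The 3 groups did not overlap. The difference was 0.49 ± 0.06 in HT PSC medium (SE; limma adjusted p = 0.00424), a call that held when any single array of the comparison was left out, and 0.27 ± 0.06 in WT PSC medium (SE; limma adjusted p = 0.0464). The second call was lost with the replicate number as a block (adjusted p = 0.0899), with the slide as a block (adjusted p = 0.0668), with the probes of each gene averaged (adjusted p = 0.0782), and without control medium 1 or 3 or any 1 of the WT PSC medium arrays, at adjusted p from 0.102 to 0.161. Id4 and Tgfbi were below background on all 9 cancer cell arrays.

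**Figure D3:**
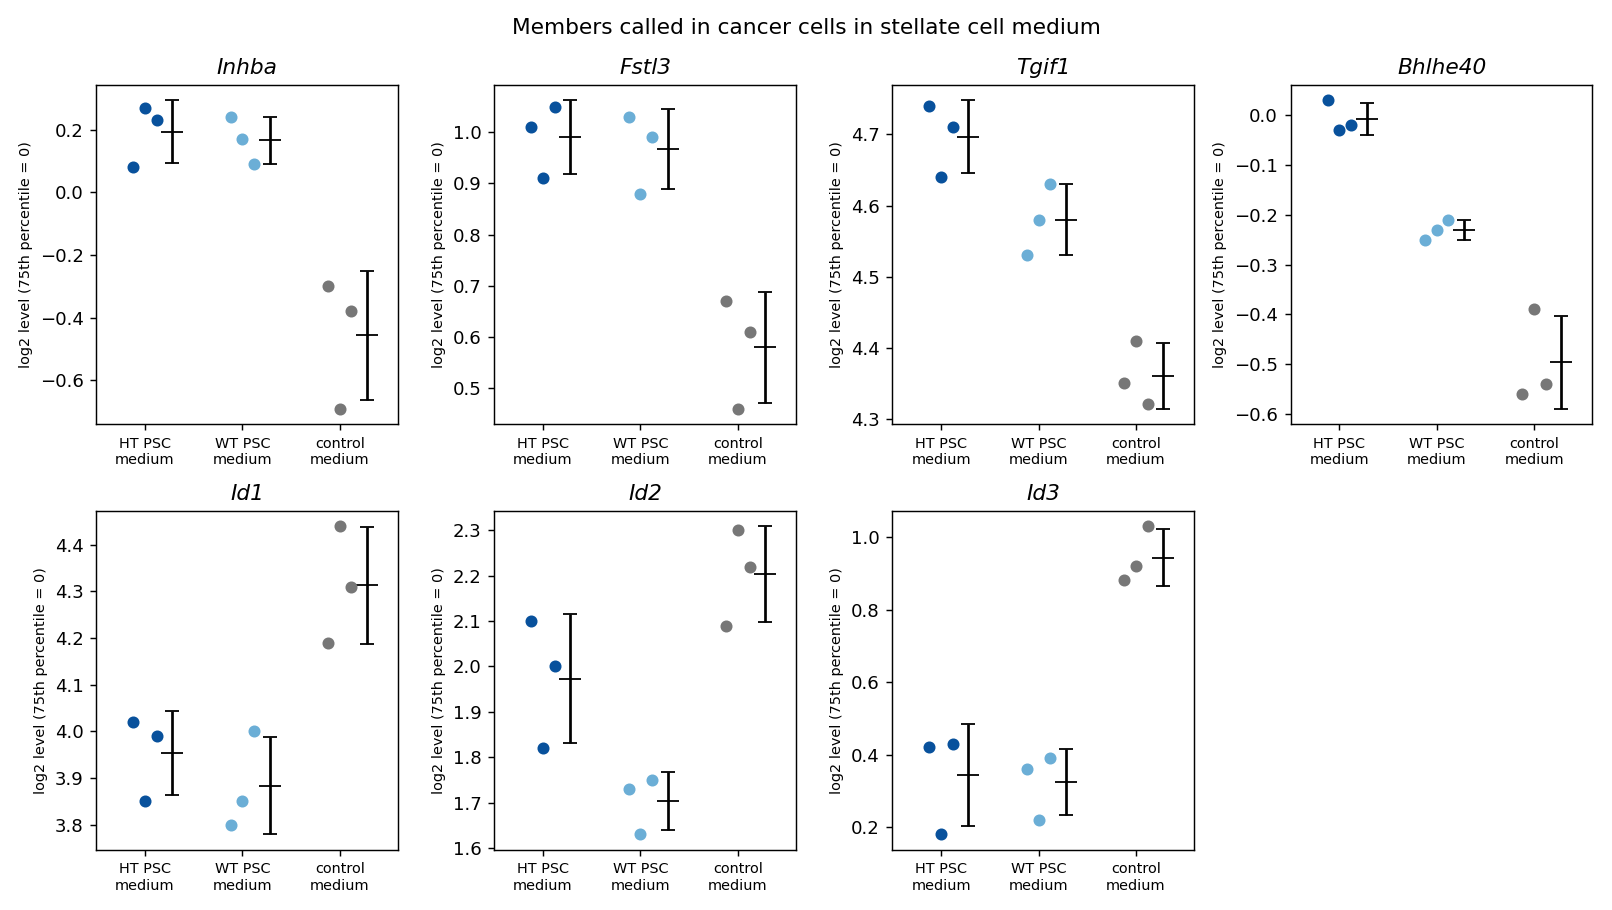
Levels of the 7 members called in cancer cells in 1 or both conditioned media, in HT PSC medium, WT PSC medium and control medium; each point is an array, the bar is the mean with its SD (n = 3), and each panel has its own axis in log2 units. Inhba, Fstl3, Tgif1 and Bhlhe40 sit above the control arrays and Id3 sits below them, at 0.18 to 0.43 in conditioned medium against 0.88 to 1.03 in control medium.

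Because Id2 and Id3 were lower together in WT PSC medium, their promoters are shown, from 250 bases before to 50 bases after the annotated start, as given by RefSeq for build GRCm38.p6. Of Id1, Id2 and Id3, 2 had an entry. Capitals mark matches on either strand to GGCGCC, the palindrome bound by BMP-activated Smads, or to CAGAC, the short Smad site.
Id2 promoter (chr12:25096043-25096342, minus strand): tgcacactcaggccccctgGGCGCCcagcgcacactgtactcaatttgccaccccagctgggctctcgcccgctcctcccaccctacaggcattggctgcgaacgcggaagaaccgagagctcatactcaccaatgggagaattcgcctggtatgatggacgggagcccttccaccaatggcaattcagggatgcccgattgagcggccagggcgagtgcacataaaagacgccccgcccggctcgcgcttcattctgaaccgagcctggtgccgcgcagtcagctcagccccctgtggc
Id3 promoter (chr4:136143572-136143871, plus strand): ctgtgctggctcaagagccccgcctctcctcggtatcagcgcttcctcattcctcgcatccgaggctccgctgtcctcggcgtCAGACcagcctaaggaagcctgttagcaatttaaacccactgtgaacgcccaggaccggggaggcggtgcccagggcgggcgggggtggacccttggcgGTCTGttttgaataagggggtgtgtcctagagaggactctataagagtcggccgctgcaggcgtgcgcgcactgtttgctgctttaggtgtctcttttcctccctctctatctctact
The Id2 window held 1 match to GGCGCC, beginning 231 bases before the start, and 0 to CAGAC. The Id3 window held 0 matches to GGCGCC and 2 to CAGAC, beginning 167 and 68 bases before the start. GGCGCC occurred in 11.9% of 32851 promoter windows of this length and CAGAC in 49.6%. The Smad palindrome GTCTAGAC occurred in 0.213% of windows and in neither of these. The 3 motifs share no overlapping letters in the matches shown. These matches describe the letters of the windows only.

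**Figure D4:**
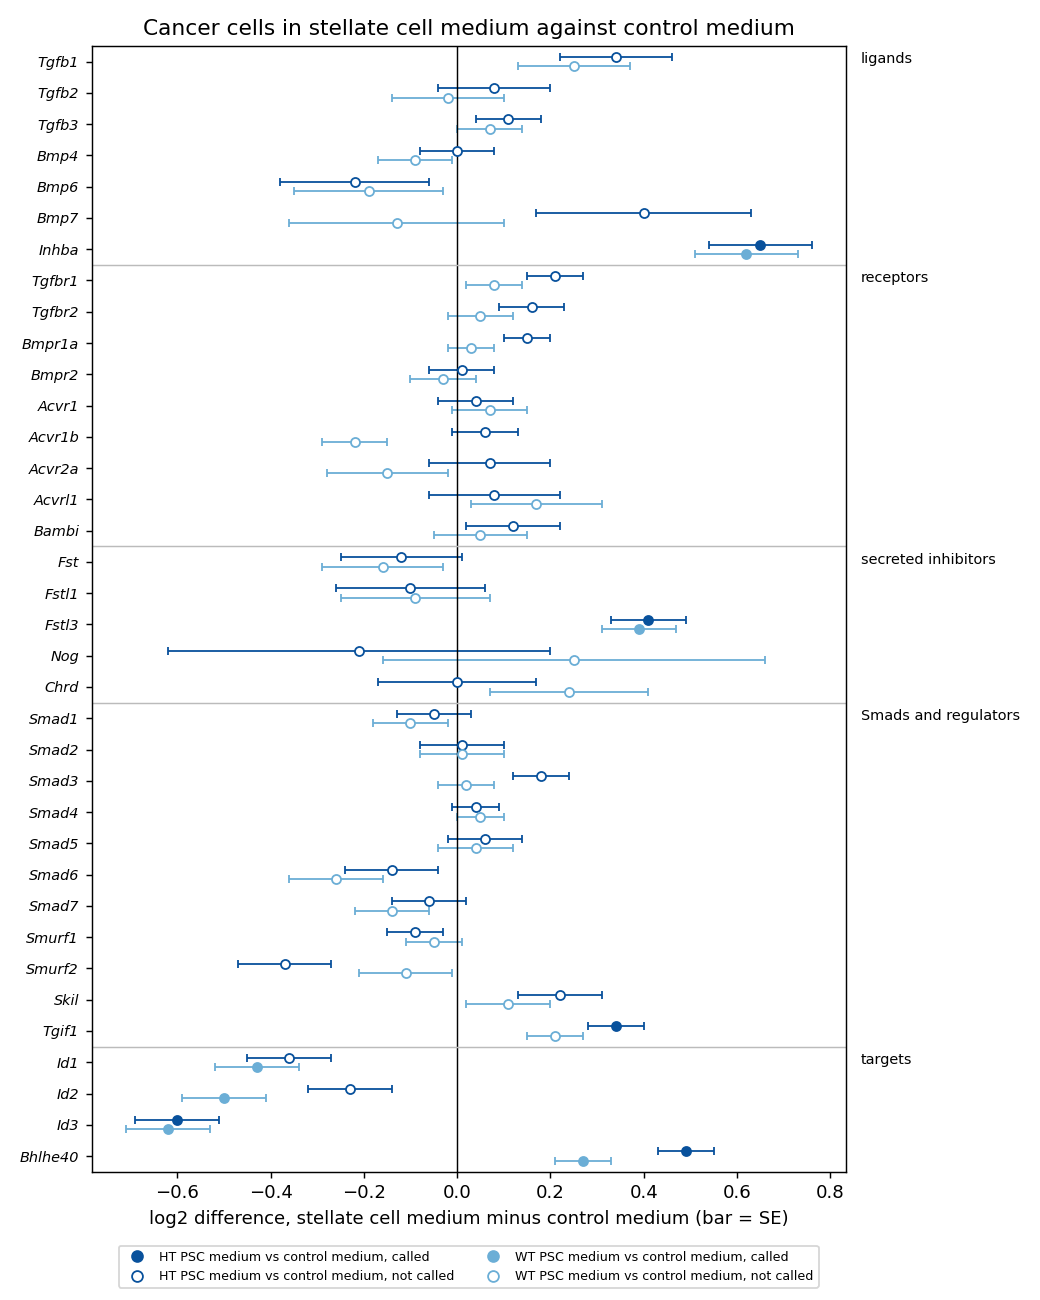
Difference of each of the 36 tested members from control medium (log2, horizontal axis; bar = SE) in HT PSC medium (dark) and WT PSC medium (light), ordered by role; filled points were called. The points share the control arrays. Inhba (0.65 in HT PSC medium, 0.62 in WT PSC medium) lies to the right of 0 and Id3 (-0.60 in HT PSC medium, -0.62 in WT PSC medium) to the left.

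Of the 69 other genes of the pathway, 52 were tested in cancer cells. By limma, 7 of the 52 were called higher in HT PSC medium and 0 lower. Of all 19687 genes, 2.97% were called higher there and 2.5% lower. In WT PSC medium 6 of the 52 were called higher by limma and 0 lower. Of all genes, 2.8% were called higher there and 3.15% lower. In both directions together, 17 of the 52 had an unadjusted p under 0.05 in HT PSC medium, as had 3891 of all 19687 genes. In WT PSC medium 15 of the 52 did, as did 3981 of all genes. Thbs1, the matrix protein thrombospondin 1, differed by 0.70 ± 0.11 in HT PSC medium and 0.56 ± 0.11 in WT PSC medium (SE). Rgma, a BMP co-receptor, differed by 0.66 ± 0.06 in HT PSC medium and 0.65 ± 0.06 in WT PSC medium (SE). Gdf15, a distant member of the family, differed by 0.73 ± 0.16 in HT PSC medium (SE; adjusted p = 0.0365, called higher) and 0.42 ± 0.16 in WT PSC medium (SE; adjusted p = 0.18, not called). Pmepa1, an inhibitor of Smad activation, differed by 0.35 ± 0.09 in HT PSC medium (SE; adjusted p = 0.0554, not called) and 0.50 ± 0.09 in WT PSC medium (SE; adjusted p = 0.0133, called higher). Between the media themselves neither was called, with an adjusted p of 0.984 for each.

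Set directly against each other, HT PSC medium and WT PSC medium gave no call. None of the 36 members tested passed in limma, nor did any of the 19687 genes, so the called share was 0% in each direction; 6 members and 960 genes had an unadjusted p under 0.05. The smallest adjusted p among the members was 0.876. Acvr1b, the type I activin receptor ALK4, differed by 0.29 (95% interval 0.13 to 0.45). Id2 differed by 0.27 (0.07 to 0.47). The second probe gave 0.08 for Acvr1b and -0.01 for Id2. Bhlhe40, with 1 probe, differed by 0.22 (0.07 to 0.37). For Inhba the difference was 0.03 (-0.21 to 0.27), for Fstl3 0.02 (-0.15 to 0.20) and for Id3 0.02 (-0.18 to 0.22). Bmp4, which was lower in the heterozygous stellate cells themselves, differed by 0.09 (-0.10 to 0.28) in the cancer cells.

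The last comparison set wild-type stellate cell cultures against cancer cells in control medium, and asked which genes of the pathway each expressed more. Markers of some other cell types were also higher in PSC WT: 12 of 14 macrophage and leukocyte markers tested, with 2 lower. So were 6 of 8 mesothelial markers, with 2 lower, and 5 of 6 endothelial markers, with 1 lower. Of 4 glial markers tested, 0 were higher and 2 lower. The levels are those of whole cultures, and the part of these cell types in them was not tested. In PSC WT, 5 of 8 ligands tested, 9 of 11 receptors and 4 of 6 secreted inhibitors were higher, while Bmp7, Smad3, Acvr1b, Tgfbr2 and Tgif1 were among the members that were lower. Of 42 members tested, 25 were called higher in PSC WT (59.5%) and 9 lower (21.4%). Over all 21928 genes tested, 36.1% were called higher and 35.2% lower. The median difference of the members was 1.00, against 0.04 for all genes. Where one side was below background, the fold is a bound, computed per array against the higher of the probe's own signal and the lowest signal well above background.

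Among the ligands, Inhbb had levels of 3.24, 3.04 and 2.92 in PSC WT and was below background on all 3 control medium arrays, an at least 394-fold higher signal (limma adjusted p = 7.5e-08). Tgfb2 averaged 3.42 ± 0.05 in PSC WT and -3.09 ± 0.18 in control medium, and Tgfb3 averaged 5.87 ± 0.07 in PSC WT and 1.37 ± 0.03 in control medium (SD, n = 3 each). The differences were 6.51 ± 0.11 and 4.50 ± 0.08 (SE). Inhba differed by 4.91 ± 0.12 and Bmp4 by 1.5 ± 0.11 (SE). Tgfb1 went the other way, at -0.46 ± 0.14 (SE; limma adjusted p = 0.0238), a call lost without PSC WT 2 or 3 or control medium 1 or 3, at adjusted p from 0.0585 to 0.079. Bmp7 was below background in PSC WT and had levels of -3.01, -3.10 and -3.22 in control medium, at least 6.1-fold lower in PSC WT (limma adjusted p = 4.94e-07).

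All 11 receptors were called, 9 of them higher in PSC WT. Acvrl1 averaged 1.34 ± 0.13 in PSC WT and -4.17 ± 0.18 in control medium (SD), a difference of 5.51 ± 0.12 (SE). Bmpr1b was at least 22.8-fold higher. Tgfbr3 averaged 0.89 ± 0.17 in PSC WT (SD) and was above background on control medium 3 alone, at -4.70. The decoy receptor Bambi differed by 3.80 ± 0.11, and Tgfbr1, Acvr2a, Bmpr1a, Bmpr2 and Acvr1 by 0.55 to 1.10. The receptors lower in PSC WT were Acvr1b at -1.46 ± 0.09 and Tgfbr2 at -0.89 ± 0.11 (SE).

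Of the secreted inhibitors, 4 were higher in PSC WT and none lower. Fstl1 had levels of 7.52, 7.28 and 7.32 in PSC WT against -3.66, -3.38 and -3.87 in control medium, a difference of 11.01 ± 0.15 (SE). Its other probes differed by 10.62 and 1.14, and the average of its probes by 7.59, so the size depends on the probe. Grem1 had levels of 0.63, 0.61 and 0.51 in PSC WT and was below background in control medium, an at least 70.5-fold higher signal. Fst differed by 3.28 ± 0.16 and Fstl3 by 3.11 ± 0.10 (SE). The BMP antagonists Nog (0.86 ± 0.50) and Chrd (0.44 ± 0.24, SE) were not called.

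Of the 11 Smads and regulators, 3 were higher in PSC WT, 3 lower and 5 not called. Smad3 averaged 2.47 ± 0.16 in PSC WT and 3.88 ± 0.03 in control medium (SD), a difference of -1.41 ± 0.10 (SE). Tgif1 was also lower in PSC WT, at -1.14 ± 0.09. The inhibitory Smads were higher, Smad6 by 1.21 ± 0.09 and Smad7 by 0.83 ± 0.11, as was Smurf2 by 1.60 ± 0.11 (SE). Smad1, Smad4, Smad5, Smurf1 and Skil, a repressor of Smad complexes, differed by -0.19 to 0.17 and were not called. Smad2 was called lower at -0.64, but its second probe gave 0.57, and the mean of both probes was not called (adjusted p = 0.76). Of 22 further probes of the members called that were above background on at least 3 of the 15 arrays, the second Smad2 probe was the 1 with a direction opposite to that of the reported probe.

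Of the 6 targets, 4 were higher in PSC WT and 2 lower. Tgfbi, a TGF-beta-induced matrix protein, was at least 90.3-fold higher in PSC WT and Id4 at least 27-fold. Id3 averaged 3.92 ± 0.03 in PSC WT and 0.94 ± 0.08 in control medium (SD), a difference of 2.97 ± 0.08 (SE). Id1 and Id2 were lower in PSC WT, at -0.36 ± 0.10 and -0.53 ± 0.10 (SE). The call of Id2 was lost when its probes were averaged (adjusted p = 0.0647). Bhlhe40 was higher by 1.11 ± 0.09 (SE).

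**Figure D5:**
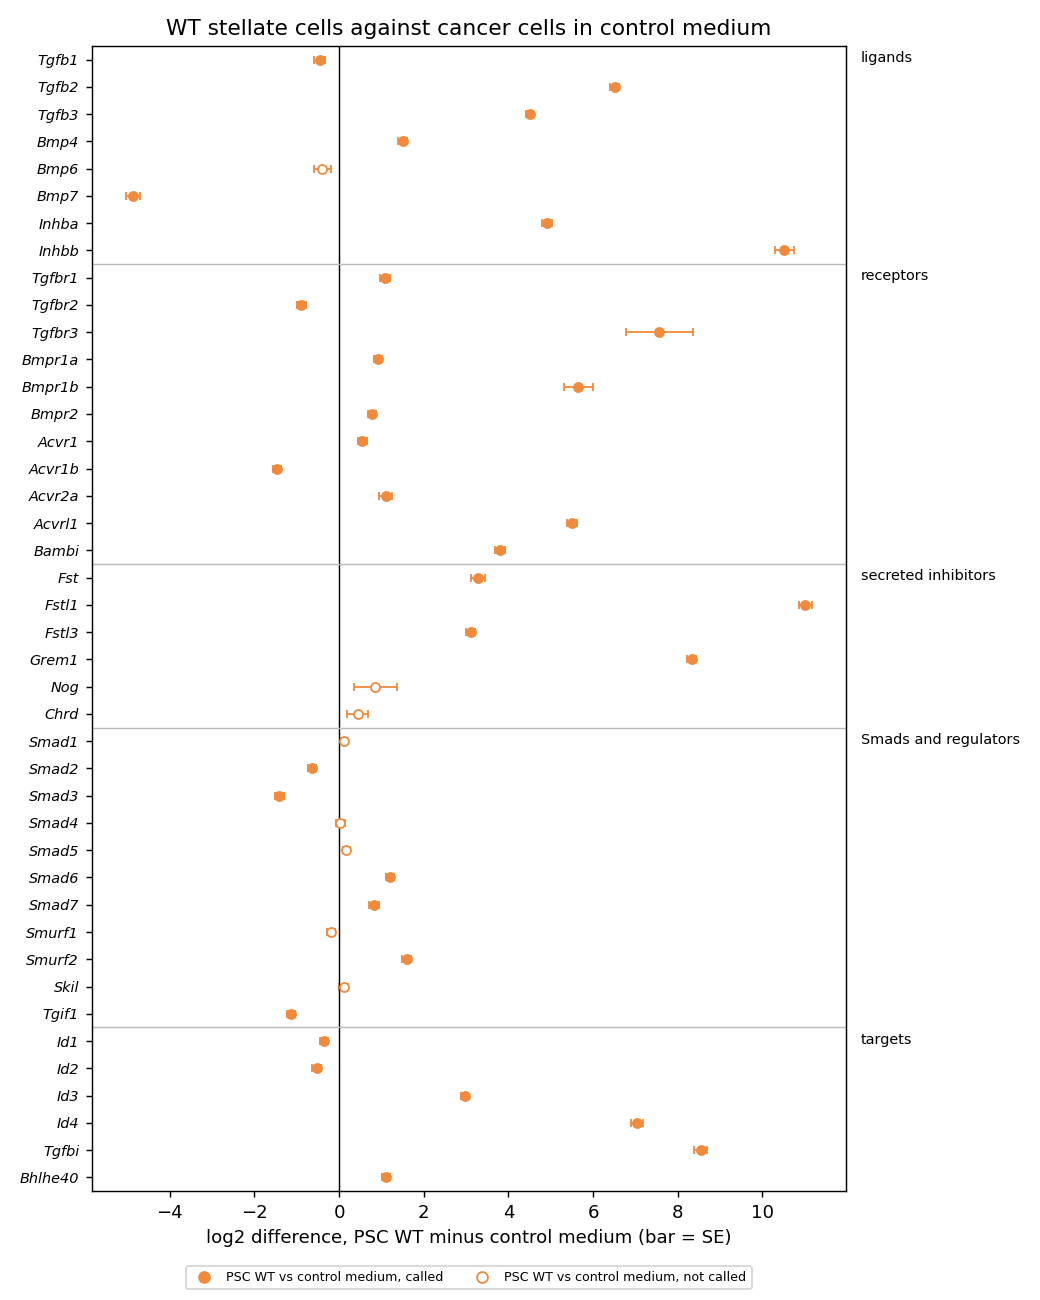
Difference between PSC WT and cancer cells in control medium (log2, horizontal axis; bar = SE) for the 42 tested members, ordered by role; filled points were called. Fstl1 lies at 11.01, and 8 members were not called. Points of members below background on one side (Bmp7 in PSC WT; Inhbb, Bmpr1b, Grem1, Id4 and Tgfbi in control medium) are drawn at the measured difference, for which only the bound given in the text holds.

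Of the other pathway genes, 63 were tested between PSC WT and control medium. Where 36.1% of all genes were called higher and 35.2% lower, 38 of the 63 were called higher (60.3%) and 13 lower (20.6%). Those most higher in PSC WT were Dcn, the TGF-beta-binding proteoglycan decorin (at least 2340-fold), Tgfb1i1 (at least 1510-fold), Ltbp2 (11.01 ± 0.09, SE) and Lrrc32 (10.46 ± 0.12, SE). Those most lower were Itgb6, an integrin subunit of epithelia that activates TGF-beta (at least 28.7-fold lower), Amhr2 (-3.02 ± 0.33), Acvr2b (-2.35 ± 0.15) and Tgif2 (-1.76 ± 0.09; SE).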

How the data were processed

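Per the file headers, each array was scanned in 1 colour (Cy3) and extracted with Agilent Feature Extraction 10.7.3.1, which gave a background-subtracted intensity per spot. The deposited value table holds the authors' log2 values of the same arrays, which served as an alternative. Here the intensity was averaged over spots of a probe, without control spots and outlier flags, scaled to each array's 75th percentile and turned to log2. 1 probe stood for a gene. Groups were compared with limma 3.58.1 (R 4.3.3) over all genes, with 6 PSC arrays, 9 cancer cell arrays, or 6 arrays of PSC WT and control medium. The procedure was also tested on simulated data, and the outcome is not given here. Probe names were updated by accession and symbol. The members and lists were chosen with earlier results of these data known. The genes named are those called and, per role, some members not called. These are bright members and others, such as Bmpr1b, Id4 and Smurf2, whose differences fell short of the threshold. Of other pathway genes, up to 4 with the largest differences in each direction are named, some not reported here. Scans fell on 2 slides, each holding several groups. Same-numbered arrays of WT PSC medium and control medium deviated together (r of 0.22, 0.31 and 0.26), but so did some differently numbered ones (r of -0.52 to 0.26). In no other pair of groups did same-numbered arrays do so throughout (r of -0.30 to 0.44). The number of arrays limits the precision. The alternatives were another background correction, scaling, filter, probe rule, block and variance, and leaving out each array. Figures were drawn with matplotlib; sequences came from the deposited files and RefSeq.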

Additional observations from a re-analysis of the deposited data

How the results depend on the processing

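Of the values of called members recomputed under the alternatives, 815 kept their direction and their side of the threshold and 75 kept their direction and no longer passed. The number of members called between PSC HT and PSC WT (4) was 2 with median scaling, 1 with no filter, 8 with trended robust variances, 8 with all 15 arrays in 1 fit, and 1 to 4 when 1 array was left out. In WT PSC medium (6) it was 1 with median scaling, 1 with no filter and 2 to 5 with 1 array left out. In HT PSC medium (5) it was 2 with median scaling, 2 with no filter and 3 to 5 with 1 array left out. Median scaling kept Bmp4 and Acvrl1 between PSC HT and PSC WT, Inhba in WT PSC medium, and Inhba and Bhlhe40 in HT PSC medium. No filter kept Bmp4 in the first, Id3 in the second, and Bhlhe40 and Id3 in the third. With no filter 37008 genes entered the adjustment; for the other settings the cause was not tested. HT PSC medium against WT PSC medium gave 0 members in every setting run, and PSC WT against control medium (34) gave 27 to 36. Median scaling moved the median difference of all genes in that comparison to -0.35, against 0.04, and Acvr1 lost its call. With the replicate number as a block, 4 members were called between PSC HT and PSC WT (Fstl3 lost, Id4 gained), 4 in WT PSC medium, 5 in HT PSC medium, 0 between the media and 34 between the cell types. Probes near background limit what can be said of Bmp2 and Bmp7 in PSC.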
